A study of Mus musculus with 4 samples.

Results

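The 10 genes described here are the Notch receptor genes Notch1, Notch2 and Notch3, the gene of their DNA-binding partner Rbpj, the Mastermind genes Maml1, Maml2 and Maml3, the target gene Hes1 and the modulators Dtx1 and Numb. They were taken by symbol from a RefSeq table of 21896 mouse protein-coding genes. The list was chosen by pathway with earlier results of these data known. The measured values in view were the counts of KAP1 sites at these genes, above all those inside Maml3, so the counts below are a description and no test was made on them. KAP1 (TRIM28) is a silencing cofactor recruited to DNA by KRAB zinc finger proteins. Its binding sites were located with ChIP-seq, the sequencing of DNA precipitated with an antibody, in regulatory T cells, which restrain immune responses. The cells were sorted from C57BL/6 mouse spleen and expanded for 2 weeks in culture. No genotype, drug or age is named in the labels, and the purity of the cells cannot be checked from lists of binding sites.

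There were 2 samples precipitated with a KAP1 antibody and 2 inputs without antibody, which were not analysed here. Each KAP1 sample has a list of summits, the base of highest enrichment in each called peak. Replicate 1 has 8862 summits and replicate 2 has 79515, or 8.97 times as many, and the read depth behind them is unknown. Nothing in the labels says whether the replicates came from separate animals or cultures. A site was called shared when summits of the replicates lay at most 200 bp apart. It was placed at a gene's end (within 1 kb of its lowest or highest coordinate), in its body (the rest of the gene) or in its flank (up to 20 kb outside). The peak caller gave each summit a score on a −log10 scale (of p or of q, which is not stated), printed here with its percentile within its own list. All positions are on mm10.

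Notch receptors are surface proteins that ligands on neighbouring cells activate. ADAM proteases and then the gamma-secretase complex cut the bound receptor, and its intracellular domain enters the nucleus, where it joins the DNA-binding protein RBPJ and a Mastermind coactivator to switch on genes such as Hes1 and Dtx1. Without the intracellular domain, RBPJ holds corepressors. In the T lineage the pathway is best known for committing thymic progenitors to the T cell fate, and it also acts in the differentiation of mature CD4 T cells.

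Notch1, Notch2 and Notch3 had little reproducible KAP1 signal, and the Notch2 promoter held the only site of these receptor genes found in both replicates. The Notch2 promoter is shown because it was also the only RefSeq promoter window of these genes that held a summit. Such windows were available for 9 of the 10 genes, and the Hes1 promoter could not be checked. The sequence is the 250 bases before the annotated Notch2 start, chr3:98013288-98013537 on the + strand (RefSeq, GRCm38.p6). Capitals mark the 21 bases centred on the replicate 1 summit.
Notch2: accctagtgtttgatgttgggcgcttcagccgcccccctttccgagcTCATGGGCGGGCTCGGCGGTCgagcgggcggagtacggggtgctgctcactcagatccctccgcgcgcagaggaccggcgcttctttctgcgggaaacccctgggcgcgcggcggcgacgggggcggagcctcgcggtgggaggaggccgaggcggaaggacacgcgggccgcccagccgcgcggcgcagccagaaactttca
The stretch has 72.0% G and C and holds 34 CG dinucleotides, of which 3 are in capitals. Over the whole window of 300 bases there were 41 CG, against a median of 13 in the 21262 coding-gene promoter windows of the table. The letters TGGGAA, the core of RBPJ sites, CCGGAA, the core of ETS sites, and GTGGGAA, which contains TGGGAA, were searched on both strands. None was in the Notch2 window. Of all windows, 24.5% held TGGGAA, 18.7% held CCGGAA and 6.07% held GTGGGAA.

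Across the 10 genes, every replicate 1 summit had a replicate 2 partner. There were 18 such shared summits, 2 at ends, 14 in bodies and 2 in flanks. Replicate 2 had 88 summits over the same spans, so 70 had no partner. Neither pattern is particular to these genes. Genome-wide, 7720 shared summits stood beside the 8862 listed for replicate 1, so most of that list was paired. In the much longer replicate 2 list only 9.71% had a partner. A shared summit at an end was present in 2 of the 10 genes (Notch2 and Maml2), against 8.55% of all coding genes. A shared summit in the body was present in 3 (Rbpj, Maml2 and Maml3), against 12.4% of the 19300 coding genes over 2 kb long. Counting ends, bodies and flanks together, 5 genes had one, against 32.7% of coding genes. These genes are long, with a median of 73.9 kb against 17.1 kb for all coding genes, and a longer gene offers more room for body sites. In replicate 1, paired or not, the same counts of 2, 3 and 5 stood against 9.4%, 13.3% and 34.2% of coding genes. In replicate 2 alone, 3 had an end summit (22.2% of coding genes), 9 a body summit (54.4%) and all 10 a summit in 1 of the 3 places (80.8%).

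**Figure D1:**
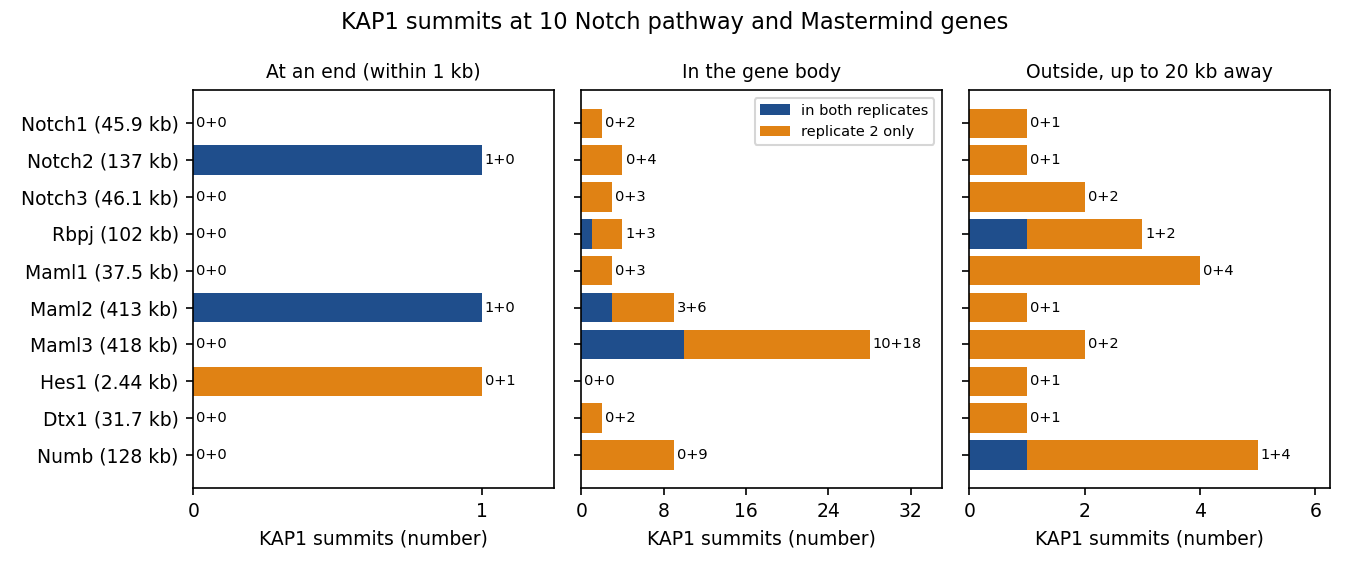
KAP1 summits (number, horizontal axes) at the ends, in the body and in the flanks of each gene. Blue bars count summits found in both replicates and orange bars those of replicate 2 alone, with both numbers printed as a sum. Maml3 holds 10 of the 14 shared body summits, and 5 of the 10 genes have no blue bar in any panel.

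Among the receptors, Notch2 (chr3:98013538-98150367) had its shared summit at 98013345 in replicate 1 and 98013344 in replicate 2, 193 bp upstream of the annotated start. Its scores, 3.21 and 3.53, were among the lowest of both lists, at percentiles 6.97 and 0.489. The body held 4 further summits of replicate 2 alone. The strongest, at 98066826 and 53288 bp downstream of the start, scored 40.5 (percentile 98.9), and the nearest replicate 1 summit was 53.5 kb away. Such an absence is uncommon at that strength: of the 842 replicate 2 summits that scored as high or higher, 87 (10.3%) had no partner. The strength of the Notch2 sites therefore ran opposite to their reproducibility, with the weak promoter site paired and the strong intragenic site not.

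Notch1 (chr2:26457902-26503822), the receptor that drives T lineage commitment, had no shared summit within 20 kb. Its closest one lay 105607 bp away. In replicate 2 alone it had body summits with scores of 4.80 and 14.4, the latter 2950 bp downstream of the start, and a flank summit with 10.2. Notch3 (chr17:32120820-32166896) also had no shared summit within 20 kb. Replicate 2 alone placed 3 in its body, with scores of 14.4, 4.0 and 9.23, and 2 in its flank. The flank summit at 32185745 lay inside the coding gene Ephx3. The body counts of replicate 2 (2 for Notch1, 4 for Notch2, 3 for Notch3) were near the medians of coding genes of similar length, which were 2, 5 and 2. Of those genes, 17.5%, 26% and 17.6% had a shared body summit.

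Rbpj (chr5:53555779-53657445), which encodes the transcription factor through which all Notch receptors act on DNA, had 1 shared body summit and 1 in its flank. The body summit, at 53599309 and 53599331 in the replicates, lay 8823 bp downstream of the nearer of its RefSeq starts. It scored 3.45 in replicate 1 (percentile 10.1) and 8.51 in replicate 2 (percentile 50.6). The flank summit, at 53547049, lay 8730 bp below the gene's lower end and inside the non-coding RNA gene Gm40304. It had a replicate 1 score of 2.27, at percentile 1.18, and a replicate 2 score of 12.9, at percentile 82.6. Both sites thus ranked low in replicate 1 and higher in replicate 2. Of the coding genes of similar length, 29.8% had a shared body summit. Replicate 2 alone added 3 body summits and 2 in the flank, of which the flank summit at 53540675 was the strongest (24.5, percentile 97.0).

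The Mastermind-like genes encode the coactivators that complete the nuclear Notch complex, and they differed most from one another. Maml1 (chr11:50255634-50293131, 37.5 kb) had no shared summit within 20 kb, although replicate 2 had 7 there, 3 of them in the body. Of coding genes of similar length, 16% had a shared body summit. The strongest of the 7 replicate 2 summits was in the flank, at 50240269, with a score of 23.7 (percentile 96.8). It was 126.0 kb from the nearest replicate 1 summit. The coding gene Ltc4s lies closer to it than Maml1 does, at 1737 bp against 15365 bp. Maml2 and Maml3 are nearly equal in length, 413 kb and 418 kb, which allows their counts to be set side by side. Maml2 had 4 shared summits, 1 at its 5′ end and 3 in the body. Maml3 had 10, all in the body. In replicate 2 the body counts were 9 and 28.

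The Maml2 end summit (chr9:13296561-13709533) lay at 13296675, 114 bp inside the gene's lower end and 1283 bp upstream of the nearest RefSeq start. Its scores were 13.2 and 17.1, at percentiles 77.5 and 92.7. Summits at 13442953 and 13443700 stood 747 bp apart, with replicate 1 scores of 11.9 and 19.8 and replicate 2 scores of 18.9 and 19.1. These close neighbours and the end summit were in the upper part of both lists. The summit at 13561866 was weaker (6.16 and 7.49), and its replicates fell on the same base. Of the 256 other coding genes of similar length, 58 (22.7%) had a shared body summit and 15 (5.86%) had at least the 3 of Maml2. In replicate 2 its 9 body summits lay under the median of 11 for these genes.

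Maml3 (chr3:51687320-52105319, − strand) held 7 of its 10 shared sites in a run near the 3′ end, while the other sites, among them the strongest, lay scattered through the rest of the gene. The strongest, at 52000156 in both replicates, lay 104850 bp downstream of the start. Its scores of 23.6 and 76.0, at percentiles 91.6 and 99.8, were the highest of all 18 shared summits of the 10 genes. The other site with a high replicate 2 score, at 51788782, had 8.81 in replicate 1 (percentile 63.3) and 35.3 in replicate 2 (percentile 98.6). The remaining replicate 1 scores ran from 4.17 to 15.7 and the replicate 2 scores from 3.43 to 12.2.

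The 7 sites nearest the 3′ end of Maml3 lay within 83.4 kb, from 51705351 to 51788782, and the next followed after 58.6 kb. The closest pair, 51744669 and 51745258, stood 589 bp apart. Divided into 4 equal parts from the 5′ end, a division made after the positions were seen, the gene held 1, 1, 1 and 7 shared summits. The replicate 2 counts in the same parts were 6, 3, 5 and 14, which include the partners of the shared summits. Summits of replicate 2 alone numbered 5, 2, 4 and 7, so outside the shared sites the parts differed less. The 4 parts of Maml2 held 1, 2, 1 and 0 shared summits. The median spacing of shared summits was 25.5 kb in Maml3, 118.0 kb in Maml2 and 61.6 kb over all shared summits. None of the Maml3 sites lay at another coding gene, the nearest being Mgst2 at 22676 bp from the site at 51705351. The non-coding RNA gene Gm46803 lies inside Maml3, with no shared summit in it or within 1 kb of it.

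**Figure D2:**
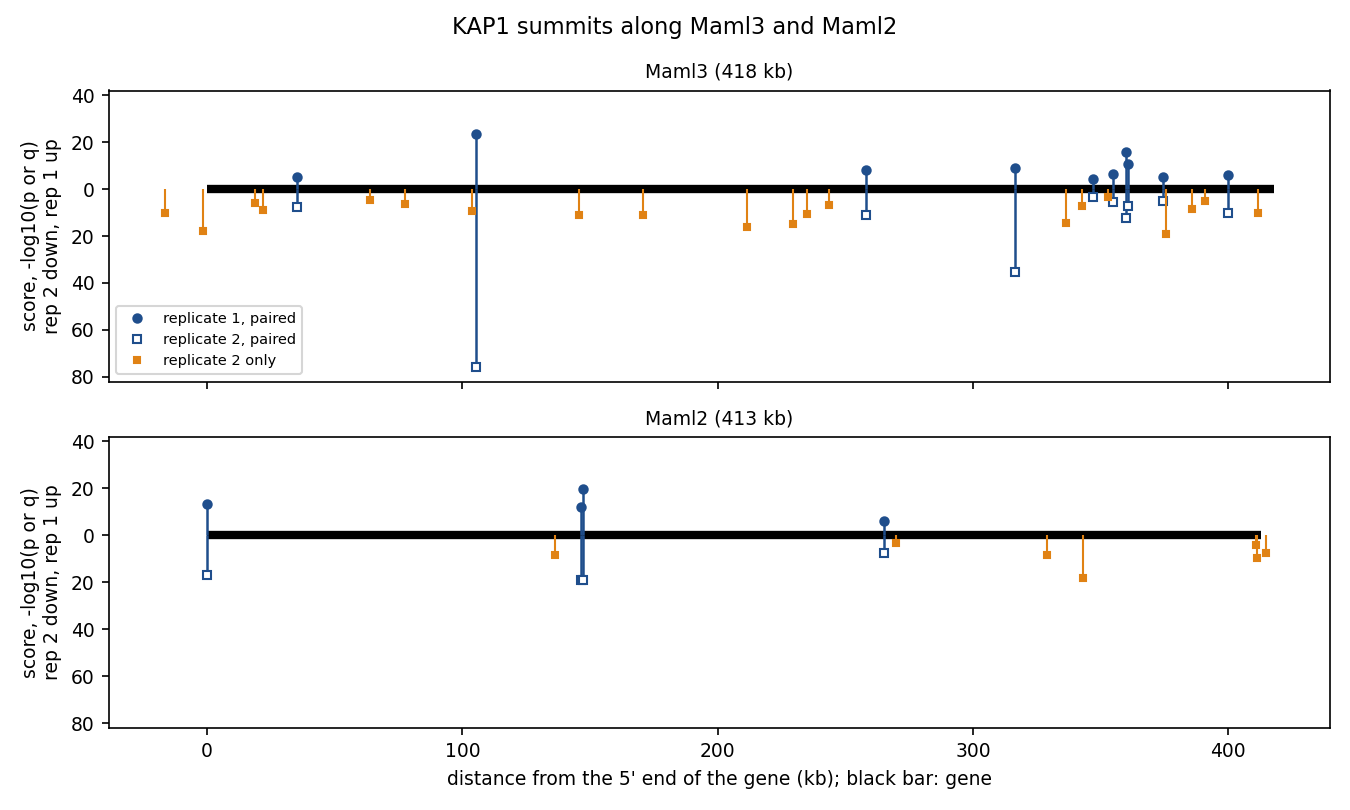
Positions of KAP1 summits along Maml3 and Maml2, by distance from the 5′ end of the gene (kb, horizontal axis). Vertical lines give the score (−log10 of p or q), upward for replicate 1 and downward for replicate 2. Blue marks summits paired across replicates and orange those of replicate 2 alone. Maml3 has 7 paired summits in the last of 4 equal parts, while Maml2 has 0 there. The highest-scoring Maml3 summit lies apart from the other paired ones, at 105.163 kb.

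Maml3 was next set against the 256 other coding genes with lengths between 335078 and 522384 bp. Of these, 57 (22.3%) had a shared body summit, their median was 0, and 0 (0%) had as many as the 10 of Maml3. The next were Tiam1 with 8, Rere with 7 and Atxn1 with 6. All 316 coding genes longer than Maml3 also had fewer, and 262 of them had 0. Among coding genes of any length, Prkch had 11 and Akap13 had 10, names picked out after their values were seen. Since Maml3 was chosen for its sites, this rank is a description of how it was chosen.

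Ranked per length, Maml3 stood less far out. It had 2.39 shared body summits per 100 kb of gene, against 0.73 in Maml2 and 0.189 over the other 8 genes pooled. The density was 0.329 over all coding genes with a body and 0.19 over those of at least 100 kb, pooled. Prkch, which is 193 kb long, had 5.69, and 49 of the 2428 coding genes of at least 100 kb (Maml3 among them) reached its density. In replicate 2 the 28 body summits of Maml3 made 6.70 per 100 kb. The density there was 3.59 over all coding genes, 3.11 over those of at least 100 kb and 5.09 over the other 8. Of the genes of similar length, 4 (1.56%) had at least 28. Numb (7.04 per 100 kb) and Maml1 (8.0) were denser than Maml3 in replicate 2, so the density of Maml3 was the highest of the 10 genes among shared sites but not in the longer list. Of the replicate 2 body summits, 35.7% were shared in Maml3 and 33.3% in Maml2, against 9.17% over all coding genes and 1 of 27 in the other 8 genes.

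Many Maml3 sites are weak. With scores required to reach the median of each list, 4 of its 10 sites remained and 1 of the 256 genes had as many. With replicate 2 reduced to as many of its strongest summits as replicate 1 has, 2 remained, those at the highest replicate 2 scores, and 13 of the 256 genes (5.08%) had as many.

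**Figure D3:**
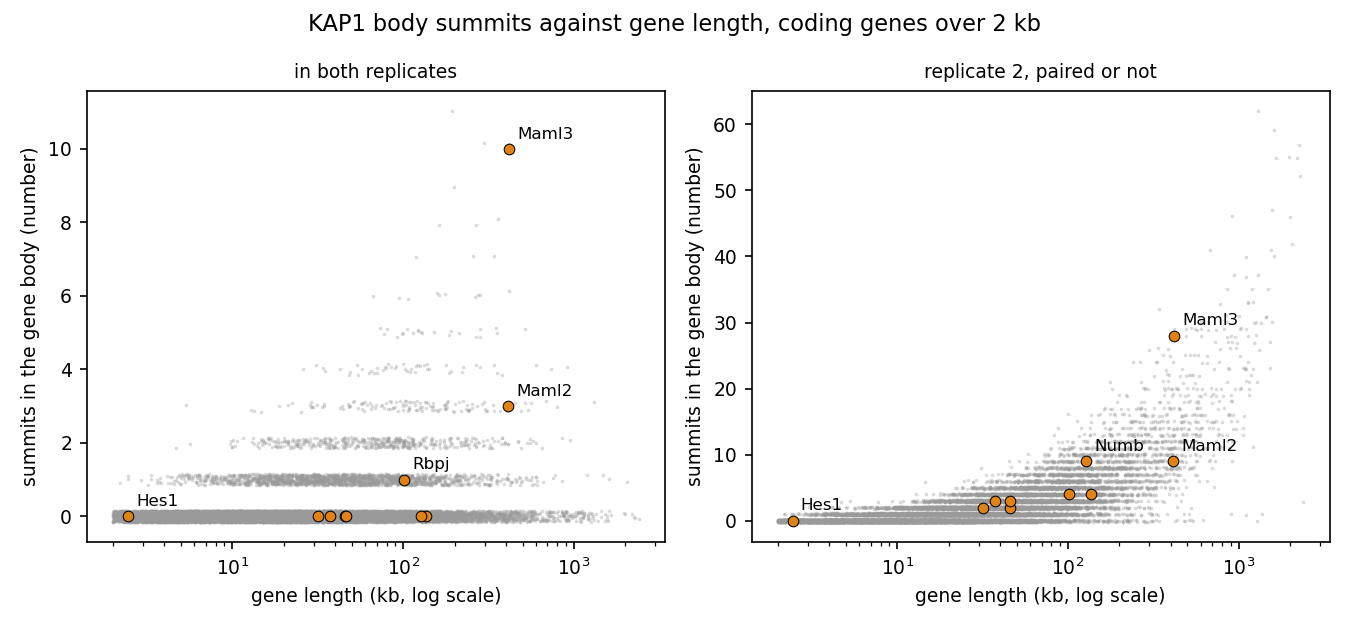
Number of KAP1 summits in the gene body (vertical axes) against gene length (kb, log scale), for coding genes over 2 kb, with shared summits on the left and all replicate 2 summits on the right. Grey points are coding genes, spread slightly up and down to separate them, and orange points are the 10 genes. Maml3 is above every gene of its length on the left with 10, while on the right its 28 lie at the upper edge of the cloud and the 9 of Maml2 inside it.

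The target gene and the modulators had no shared site in the gene. Hes1 (chr16:30065357-30067796), a basic helix-loop-helix repressor induced by Notch, had no replicate 1 summit within 20 kb. Replicate 2 placed a summit at 30065608, 251 bp inside the lower end of the gene, with a score of 17.8 (percentile 93.7). The nearest replicate 1 summit was 112.0 kb away, and 48.4% of replicate 2 summits with that score or a higher one had no partner. Dtx1 (chr5:120680203-120711867) encodes the E3 ubiquitin ligase Deltex 1 and is itself induced by Notch. It had 2 body summits of replicate 2 alone, with scores of 7.76 and 13.3, and 1 in its flank. The flank summit, at 120672551, lay inside the coding gene Rasal1. Of coding genes as short as Hes1, 0.44% had a shared body summit, and of those as long as Dtx1, 14% did.

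Numb (chr12:83794034-83921942), which encodes an endocytic adaptor that antagonises Notch, had 1 shared summit, in its flank. It lay at 83934905, 12963 bp outside the higher end and 12971 bp upstream of the nearest RefSeq start. Its scores of 18.9 and 36.0, at percentiles 87.9 and 98.7, were the second highest of the 18 shared summits in replicate 2 and the third in replicate 1. The coding gene Heatr4 lies closer to this site than Numb does, at 10308 bp. The non-coding RNA gene Gm31386 (83921888-83933096) overlaps the higher end of Numb, extends toward the site and stops short of it. The Numb body held 9 summits of replicate 2, none with a partner, with scores from 3.96 to 16.6. Of the 1012 coding genes of similar length, 13.2% had at least 9, and 27.6% had a shared body summit.

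The 18 shared summits were precisely placed and of middling strength. The paired positions differed by a median of 2 bp and by at most 36 bp, against a median of 6 bp over all 7720 shared summits, so no pair was near the limit of 200 bp. The nearest unpaired summit of replicate 2 lay 994 bp from a replicate 1 summit. Replicate 1 scores ran from 2.27 to 23.6 with a median of 7.46, and replicate 2 scores from 3.43 to 76.0 with a median of 10.8. The medians over all shared summits were 8.34 and 12.4. In percentiles the medians were 51.3 and 70.8 for these genes and 58.3 and 81.2 for all shared summits. The 70 unpaired replicate 2 summits had a median score of 9.13, against 8.39 over the whole replicate 2 list. Of the 70, 11 were in the top 10% of that list.

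No shared site lay near the borders of the spans. The flank sites of Rbpj and Numb, at 8730 and 12963 bp, were the farthest shared sites inside 20 kb. The next beyond it was 32775 bp from Maml3. Just outside the 1 kb end windows lay only replicate 2 summits, at 1606 bp from Maml2, 1624 bp from Maml3 and 1670 bp from Rbpj.

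**Figure D4:**
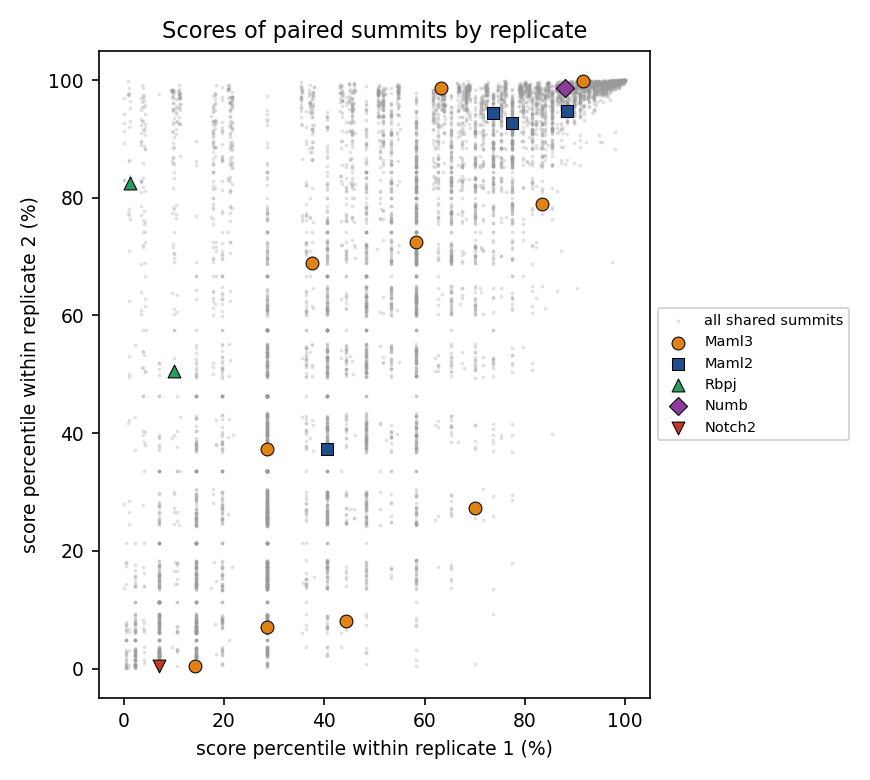
Score percentile of each paired summit within replicate 1 (horizontal, %) and within replicate 2 (vertical, %). Grey points are all 7720 shared summits, and coloured symbols are the 18 of Maml3, Maml2, Rbpj, Numb and Notch2. The Notch2 promoter site lies at the lower left corner, the Rbpj sites at the left, and the Numb site and the strongest Maml3 site at the upper right.

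Other genes of the pathway carried shared sites at their ends in a share close to the 2 of 10 above. The end site of Il2ra and body sites of Fbxw7, Mfng and Kat2b scored above every shared site of the 10 genes in both replicates. Of 63 further Notch pathway genes, 15 (23.8%) had a shared end summit and 15 (24.6% of the 61 with a body) a shared body summit. The figures for all coding genes are 8.55% and 12.4%. Their median length was 23.7 kb, so they are somewhat longer than coding genes in general. This list too was made with earlier results known, the site at Il2ra among them, so these shares are a description. Of the 12 genes with an end summit and an entry in the table of starts, 9 had one within 1 kb of a start.

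Of the Notch ligand genes, 0 of 5 (Dll1, Dll3, Dll4, Jag1 and Jag2) carried a shared summit at an end or in the body. With so few genes, that is close to the shares over all coding genes, 8.55% at an end and 12.4% in the body. In replicate 2, 2 of the 5 had an end summit and 2 a body summit, against 22.2% and 54.4% of coding genes. Genes of receptor cleavage had 3 of 9 at an end, against the same 8.55%. This group and the role groups below are small, so their counts are a description. Adam10, the protease that makes the ligand-induced cut, had summits 239 bp upstream and 99 bp downstream of its start, with scores of 7.25 and 7.67 at the former and 4.17 and 4.80 at the latter. The site of Adam17, a related protease, lay 557 bp upstream (7.81 and 23.4). Aph1a, a gamma-secretase subunit gene, had its site 4444 bp downstream of the start, at the other end of the gene and 597 bp from an end of Car14 (5.02 and 35.2). Psen2, which encodes a catalytic subunit of gamma-secretase, held 2 body summits with replicate 1 scores of 14.4 and 5.10.

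Genes that glycosylate the receptor, which tunes its choice of ligand, had 2 of 5 at an end, against 8.55% of coding genes. Lfng, a fringe glycosyltransferase gene, had summits at both ends, 25 bp upstream of the start (9.50 and 10.2) and 391 bp outside the other end (13.3 and 21.8). Its relative Mfng had a body summit with scores of 31.9 and 85.7 and an end summit with 17.0 and 11.9. Pofut1, which encodes the enzyme that adds fucose to Notch, had a body summit with 26.8 and 24.1.

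Genes of endocytosis and ubiquitin transfer had 3 of 11 at an end, against 8.55% of coding genes. Mib2, a ubiquitin ligase gene for Notch ligands, had a weak site 220 bp upstream (2.31 and 5.01). Dtx3l, of the same Deltex family as Dtx1, had a strong site 872 bp upstream of its start (37.4 and 38.2). Fbxw7, which marks the intracellular domain of Notch for degradation, had an end summit (4.17 and 6.01) and 2 in the body. The body summit at 84862012 on chromosome 3 scored 37.8 and 103.0 and lay 2133 bp upstream of an annotated start inside the gene's extent.

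Nuclear cofactor genes carried several of the strongest sites. Of the coactivator genes, 2 of 5 had an end summit, against 8.55% of coding genes. Kat2b, a histone acetyltransferase gene, had one 81 bp upstream of a start with scores of 60.3 and 62.5, and 4 in the body, the strongest of them scoring 36.9 and 88.2. Snw1, which encodes a protein that binds RBPJ, had one 567 bp inside an end (9.92 and 15.9). Of the corepressor genes, 3 of 14 had an end summit, against the same 8.55%. The Ncor1 site scored 17.3 and 65.9, and that of Tle3, a Groucho-family corepressor gene, 28.1 and 48.6 at 53 bp downstream of a start.

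Among 12 target genes, 2 had an end summit, against 8.55% of coding genes. Hes7, a relative of Hes1 in the segmentation clock, had one at the end away from its start (15.7 and 12.3), and Il2ra, the interleukin-2 receptor alpha chain gene, had one 6 bp upstream of its start (58.3 and 78.3). Gata3, the transcription factor gene of type 2 helper cells, held 4 in the body, with replicate 1 scores from 11.9 to 26.8. That at 9878410 lay 190 bp downstream of an annotated start, which is inside the gene's extent. The receptor gene Notch4 had 1 body summit (5.10 and 8.31), and Rbpjl, the paralog of Rbpj, had none.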

How the data were processed

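KAP1 ChIP-seq summits of 2 mouse regulatory T cell samples were used. The submitters' processing notes name the build mm10, the aligner Bowtie2 (2.2.9), Picard (2.1.1) and the peak caller MACS2 (2.2.1). No settings, control or threshold were found in the labels. The authors deposited 1 summit list per KAP1 sample, with a −log10 p-value or q-value per summit. Which of these it is, and the read depth, are not recorded. The scores served to rank summits inside their own list.

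Gene extents came from RefSeq GRCm38.p6 (mm10 coordinates), and starts and sequences from its promoter table, which held 9 of the 10 genes (not Hes1). A gene's body excludes 1 kb at each end. Genes of similar length had 0.8 to 1.25 times the length. Summits were paired and counted in Python 3.11.15 with pandas 2.3.3, tested on simulated summits. The members and lists were chosen with earlier results of these data known, and no test was made. Of the 63 further pathway genes, the rule named those with a shared end summit and the 6 with the most body summits, ties taken by score percentile; 1 such gene is not reported here. The ligand genes, Notch4 and Rbpjl were named after their values were seen. Genes and summits are not replicates. Alternatives were other pairing distances, end windows, flanks, score limits, merged summits, and each replicate alone.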

Additional observations from a re-analysis of the deposited data

How the results depend on the processing

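Of 64 recomputed values, 50 stayed within their limit (1.5 times a count, or the 95% interval of a share) and 14 did not. Pairing distances of 50 and 500 bp, merging, flanks of 10 and 50 kb, ends of 2500 bp and the wider length band (0.67 to 1.5 times that of Maml3, share 0.212%) moved nothing past it. With scores at or above the list medians, 1 of the 10 genes had a shared end summit, against 4.99% of coding genes. The 10 genes then had 8 shared summits and Maml3 had 4. Keeping only as many top replicate 2 summits as replicate 1 has gave 1, 6 and 2, and 5.08% of genes of similar length matched Maml3. A shared end summit was then present in 3.87% of coding genes. With ends of 500 bp, 9 of the 63 further genes had an end summit, against 5.92% of coding genes. Using each replicate alone, genes with an end summit numbered 2 to 3 and with a body summit 3 to 9, the summits 18 to 88, those in the Maml3 body 10 to 28, further genes with an end summit 15 to 28 and with a body summit 18 to 36, and the share matching Maml3 was 0 to 1.56%. Over all coding genes, the shares with each replicate alone were 9.4% to 22.2% at an end and 13.3% to 54.4% in the body. Replicate 2 has more summits, which raises these counts by construction. No paired analysis was possible because the inputs were not analysed here and the values come from no test. Depth is unknown, so a gene without a replicate 1 summit cannot be called unbound.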
